A study of Homo sapiens with 12 samples.

Results

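A set of 140 genes had lower transcript levels in HT1080 cells after treatment with either of 2 unlike stimuli, the phorbol ester PMA and the lectin ConA. The members were chosen from the measured values. A gene entered the set when its mean was at least 50 normalized counts in both control groups, its mean log2(normalized count + 1) was lower by at least 1 with PMA and with ConA, and every treated library lay below every control library of its own experiment. Of 15459 genes listed in both deposited tables, 12487 met the control minimum after genes of the MMP, TIMP, GALNT, PCDH, COL, LAM, RPL and RPS symbol families had been set aside, and 140 of these met the whole rule. The prefixes kept out 7 genes that otherwise met it, namely COL15A1, GALNT15, MMP24, PCDHGA1, PCDHGA6, PCDHGA7 and TIMP3. The levels of the members in treated and control libraries are therefore what defined them and are given as a description without a test.

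HT1080 is an established human fibrosarcoma line, used here as wild-type cells. The cells of all 12 libraries were seeded in full medium depleted of biotin and moved, 3 days after seeding, to biotin-depleted medium with 1% serum. The PMA experiment holds 3 libraries of cells given 40 nM PMA (phorbol 12-myristate 13-acetate) for 24 h and 3 control libraries, and the ConA experiment 3 libraries after 24 h with 40 µg/mL ConA (concanavalin A) beside 3 controls of its own. The labels do not say that the 3 libraries of a group came from separate cultures, so p-values here measure the spread between these libraries, which may be technical. Each treatment is tied to 1 experiment with its own controls and its own normalization, and in bulk RNA a change in the share of cells that carry a transcript cannot be told apart from a change in its amount per cell.

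PMA mimics diacylglycerol, the lipid second messenger that recruits and activates protein kinase C, and signalling from that kinase reaches the MAP kinase cascade and the AP-1 transcription factors. ConA binds mannose-bearing glycans on cell-surface glycoproteins and crosslinks them, and in fibrosarcoma cells it is known for promoting the activation of pro-MMP2 at the surface. HT1080 cells are mesenchymal tumour cells.

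Values are normalized counts, the authors' reads per gene divided by 1 factor a library and not by gene length. The libraries held about 33635937 to 45592979 estimated reads on genes. All 10 mesenchymal marker genes were listed in at least 1 table, with a summed level of 463784 to 484097 normalized counts per library with PMA against 481497 to 493633 in its controls, and of 405253 to 438308 with ConA against 542467 to 620823. The 10 epithelial markers summed to 200.6 to 352.6 over all libraries and no erythroid marker was listed. The summed level of 13 T and NK cell markers was higher in treated libraries (5080 to 5576 against 1622 to 1872 in the PMA experiment, and 4699 to 5539 against 439.8 to 571.1 in the ConA experiment), and that of 7 neuronal markers was lower (4325 to 4809 against 8490 to 8745, and 7553 to 8801 against 10602 to 12956). B cell markers were higher with both (782.3 to 871.8 against 386.3 to 490.5, and 426.6 to 443 against 209.5 to 265.5), and skeletal muscle markers lower (1170 to 1265 against 1378 to 1468, and 1555 to 1889 against 2106 to 2312). With PMA endothelial markers were also higher, at 4573 to 4812 against 2568 to 2734, as were monocyte and macrophage markers, at 557.2 to 748.3 against 530.2 to 550.9, while with ConA both overlapped their controls. The sums cover listed genes only and can rest on few of them. Shared by both experiments were 4 T and NK cell, 2 B cell, 4 neuronal and 3 skeletal muscle markers. Of the T and NK cell markers, 12 had enough counts to be fitted with PMA and 4 with ConA. The sums of the 2 experiments thus rest on different genes and are not comparable with each other. They also shared 4 epithelial, 4 endothelial and 3 monocyte and macrophage markers. No gene of these lists was a member except TGFBI among the mesenchymal markers, and their part in the members' levels was not tested.

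Most genes that met the rule's limit with one treatment did not meet it with the other. Among the 12487 genes, a change of -1 or lower without overlap between treated and control libraries was met by 742 with PMA (5.94%) and by 402 with ConA (3.22%). The 140 shared genes are 1.12% of all, 18.9% of the PMA set and 34.8% of the ConA set. The rule's requirement of no overlap was weak on its own, since with PMA 33.7% and with ConA 36.8% of the 12487 genes had all treated libraries below all controls, and 17% did so with both. In the opposite direction 103 genes were higher by as much with both treatments without overlap, 39 were lower with PMA but higher with ConA, and 8 the reverse.

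The members were lower by a median of 1.72 on the log2(normalized count + 1) scale with PMA, which left a median of 30.1% of the control level, and by a median of 1.28 with ConA, which left 41.3%. Over all 12487 genes the median change was 0.02 with PMA and -0.01 with ConA. With PMA the changes ran from -4.80 to -1.01, and 48 members were at -2 or lower and 12 at -3 or lower. With ConA they ran from -2.93 to -1.003, with 13 members at -2 or lower and 0 at -3 or lower. The 10 members at -2 or lower with both were DRD2, PADI3, ERMN, ACKR3, OLFML2B, NPBWR1, PADI1, CAPS, CLSTN2 and AKR1B10. Across the 140 members the correlation of the changes with the 2 treatments was 0.32 (Spearman) and 0.43 (Pearson), on genes sharing the same libraries. The rule had cut both changes at -1, so these coefficients do not show how closely the treatments went with each other. The size of the fall was larger with PMA for 111 members and larger with ConA for 29.

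**Figure D1:**
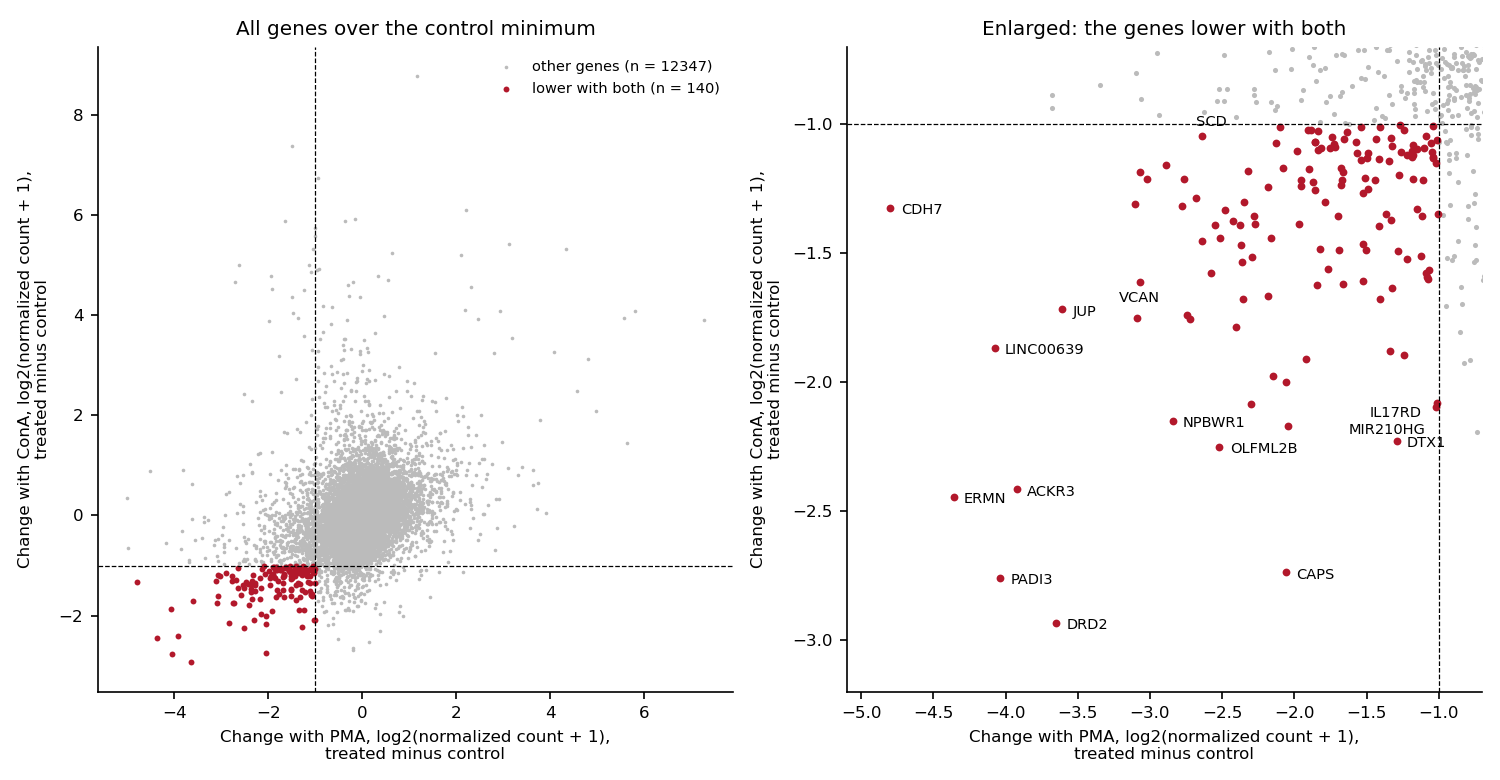
Change of each gene with PMA (horizontal axis) and with ConA (vertical axis) as mean log2(normalized count + 1) of 3 treated libraries minus that of 3 controls, for all 12487 genes over the control minimum on the left and enlarged around the members on the right. The 140 members (red) fill the corner below -1 on both axes by construction, with DRD2 and PADI3 lowest on the vertical axis among members and CDH7 farthest along the horizontal one.

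The median control mean of the members was 211 normalized counts in the PMA experiment and 313 in the ConA experiment, against 1115 and 1302 over all 12487 genes. Of the 140, 87.9% were annotated as protein coding (against 93.1% of all 12487), 12 as long noncoding RNA (8.57% against 4.01%) and 3 as transcribed pseudogenes, and 2 could not be matched to the annotation. The sections that follow take the members by role. That grouping was made after their values were seen, and it is a way of reading the set and not a test of it.

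**Figure D2:**
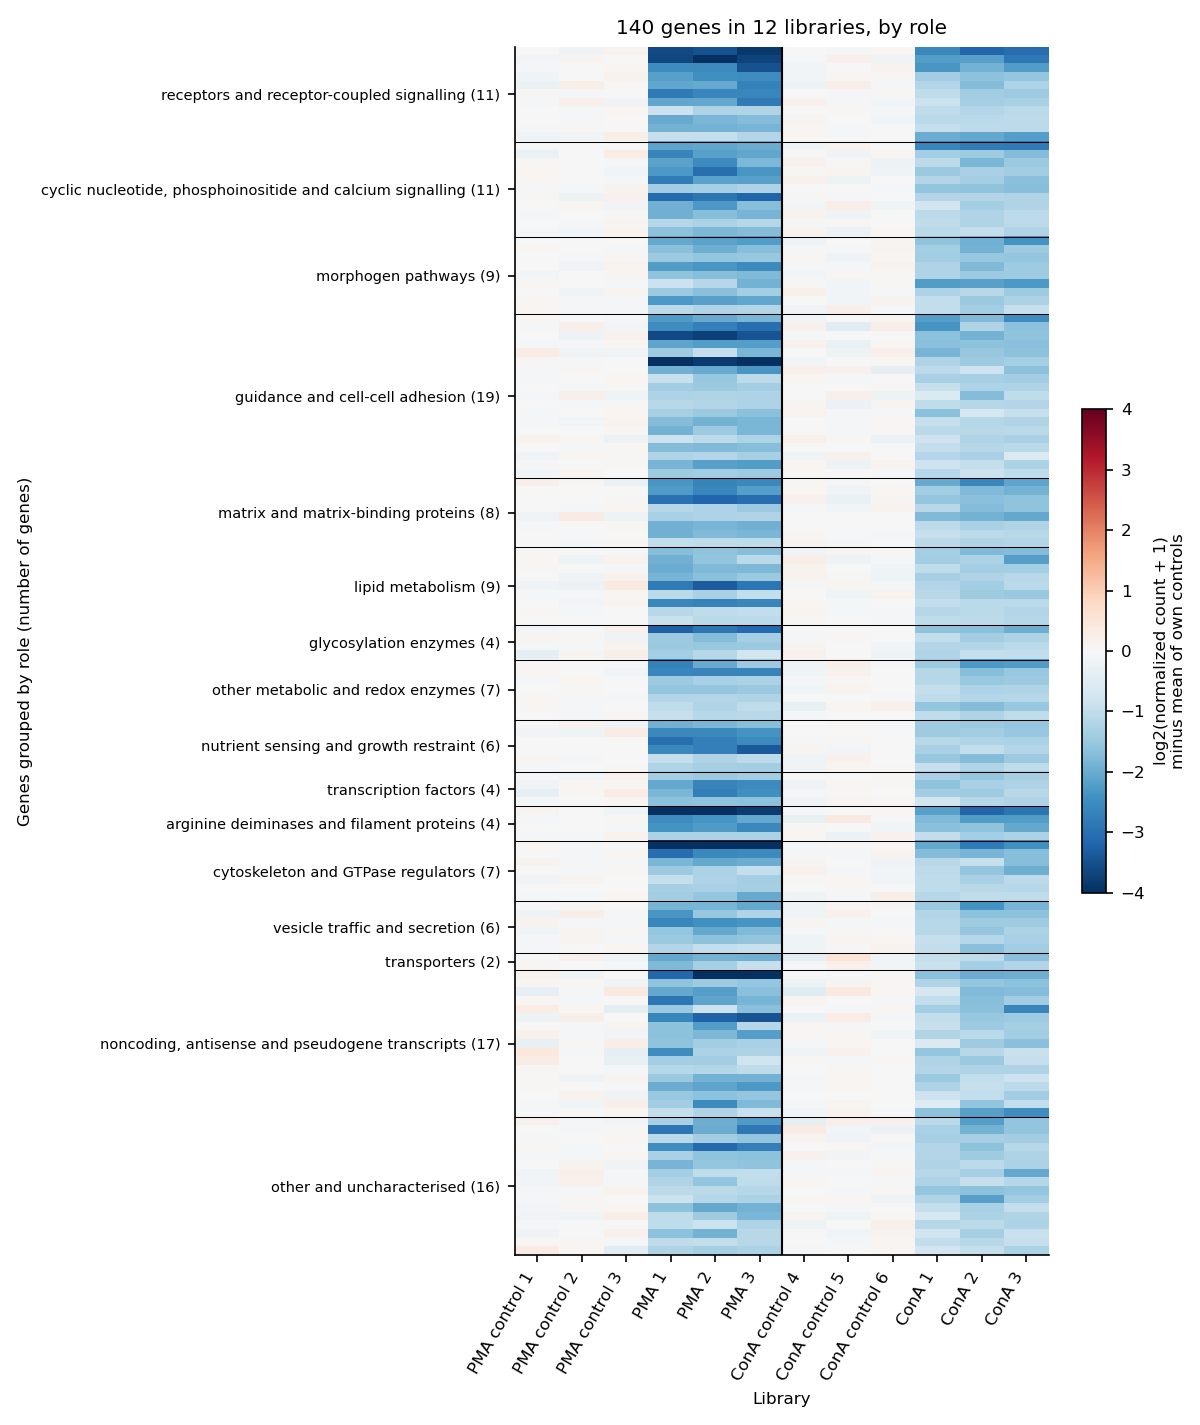
All 140 members (rows, grouped by role with the number of genes in parentheses) in the 12 libraries (columns), coloured by log2(normalized count + 1) minus the mean of the gene's own 3 controls. Treated columns are blue throughout, as the rule required, with the darkest rows under PMA, and the control columns stay near 0.

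Promoter sequence is shown here for 7 members, since the rule made no use of sequence and the AP-1 element is the one classically described for phorbol ester response. RefSeq promoters (GRCh38.p14, the 250 bases before the first-listed start) were matched by symbol for 100 of the 140 members and for 9856 of the 12487 genes. The AP-1 letters TGANTCA, a palindrome when N is left free and so searched once for both strands, stood in 11 of the 100 member promoters (11%), in 4.01% of the 9856 and in 6.6% of all 27305 promoters in the table. Besides the 6 printed below, the holders were PRR7-AS1, with 2 matches, GXYLT2, GNG2, SERTAD4-AS1 and DCLK1. The classical element has C or G as its middle base, so the letters searched were looser than that element. The middle base was T in CLCA2 and A in FLG, GXYLT2 and GNG2. The 6 holders printed below, chosen after their values were seen, are followed by PADI1, which has no match and only 3 CpG in the window. Each is read 5′ to 3′ on the gene's strand, and capitals mark the AP-1 letters.
PLEKHG4 (chr16:67277912-67278161, plus strand): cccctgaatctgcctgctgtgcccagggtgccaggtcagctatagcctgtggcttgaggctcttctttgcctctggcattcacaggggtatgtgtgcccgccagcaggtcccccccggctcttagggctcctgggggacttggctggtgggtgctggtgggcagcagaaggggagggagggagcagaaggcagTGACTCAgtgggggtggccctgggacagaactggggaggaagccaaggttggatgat
SLITRK6 (chr13:85799420-85799669, minus strand): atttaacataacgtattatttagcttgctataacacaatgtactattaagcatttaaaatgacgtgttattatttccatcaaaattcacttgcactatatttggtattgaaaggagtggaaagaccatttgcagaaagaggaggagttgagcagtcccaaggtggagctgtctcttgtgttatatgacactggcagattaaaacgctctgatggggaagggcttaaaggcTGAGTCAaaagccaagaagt
IGFL3 (chr19:46124689-46124938, minus strand): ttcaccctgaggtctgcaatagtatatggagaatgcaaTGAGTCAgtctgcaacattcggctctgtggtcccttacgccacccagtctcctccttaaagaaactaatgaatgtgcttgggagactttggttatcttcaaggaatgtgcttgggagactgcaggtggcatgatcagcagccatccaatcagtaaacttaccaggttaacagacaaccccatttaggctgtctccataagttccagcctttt
CLCA2 (chr1:86423921-86424170, plus strand): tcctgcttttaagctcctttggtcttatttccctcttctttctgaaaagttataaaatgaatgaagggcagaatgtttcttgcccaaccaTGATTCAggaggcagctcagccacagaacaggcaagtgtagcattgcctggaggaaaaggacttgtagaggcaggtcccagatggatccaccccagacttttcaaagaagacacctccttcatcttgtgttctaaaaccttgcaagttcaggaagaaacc
LINC00460 (chr13:106376314-106376563, plus strand): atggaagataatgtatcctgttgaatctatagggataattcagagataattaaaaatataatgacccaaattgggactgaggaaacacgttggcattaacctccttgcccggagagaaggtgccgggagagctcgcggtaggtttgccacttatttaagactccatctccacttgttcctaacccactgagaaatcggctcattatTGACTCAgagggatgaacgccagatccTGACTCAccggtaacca
FLG (chr1:152325240-152325489, minus strand): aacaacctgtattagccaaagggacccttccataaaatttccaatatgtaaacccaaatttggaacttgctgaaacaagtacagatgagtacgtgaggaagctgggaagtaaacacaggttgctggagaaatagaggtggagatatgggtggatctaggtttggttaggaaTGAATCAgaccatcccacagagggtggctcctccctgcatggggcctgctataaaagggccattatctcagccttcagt
PADI1 (chr1:17204878-17205127, plus strand): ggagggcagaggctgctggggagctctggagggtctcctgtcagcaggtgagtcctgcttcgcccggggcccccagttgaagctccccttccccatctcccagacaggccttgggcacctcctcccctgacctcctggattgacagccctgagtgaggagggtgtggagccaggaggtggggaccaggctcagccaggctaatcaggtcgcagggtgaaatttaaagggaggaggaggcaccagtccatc

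The matches lay 20 bases before the start in SLITRK6, 44 for the first of both in LINC00460, 57 in PLEKHG4, 79 in FLG, 160 in CLCA2 and 212 in IGFL3. A match is a run of letters and not a measured binding site. Its part in the lower levels was not tested, nor was any tie between the AP-1 letters and the CpG content given below. For the other motifs searched on both strands, the ETS letters CCGGAAG stood in 3% of member promoters against 16.5% of the 9856, and the GC box GGGCGG in 60% against 68%. The CRE core TGACGT stood in 9% against 10.4%, the TEAD letters GGAATG in 11% against 9.39%, the E-box CACGTG in 7% against 9%, TATAAA in 5% against 4.98% and CCAAT in 36% against 35.5%. The windows of members had a median GC content of 64.8% against 65.2%, yet 21% of them held 5 or fewer CpG against 8.34%, and the median was 17.5 CpG against 21. Each motif was counted on its own, also where matches of different motifs overlapped.

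Receptors and their coupled signalling held some of the lowest relative levels. DRD2, the Gi-coupled D2 dopamine receptor, stood at 687, 633 and 761 normalized counts in PMA controls, 55.7, 60.8 and 46.7 under PMA, 1461, 1447 and 1562 in ConA controls and 249, 163 and 179.7 under ConA. Its lowest control was 10.4 times its highest treated library with PMA and 5.80 times with ConA. The change was -3.65 ± 0.13 with PMA and -2.93 ± 0.19 with ConA (standard error, from the spread of 3 libraries a group), which left 7.85% and 13.3% of the control mean.

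ACKR3, an atypical receptor that takes up the chemokine CXCL12 without coupling to G proteins, was at 171, 198 and 186 normalized counts in PMA controls, 13.9, 7.60 and 13.2 under PMA, 73.99, 91.1 and 71.1 in ConA controls and 16.02, 16.7 and 9.89 under ConA. All treated libraries were at or below 17 normalized counts. NPBWR1, a receptor for neuropeptides B and W, had changes of -2.84 ± 0.32 with PMA and -2.15 ± 0.15 with ConA, from control means of 104 and 88.8. The orphan receptor GPRC5C had changes of -2.27 and -1.39, GPR162 of -1.10 and -1.09 and GPR155 of -1.89 and -1.02 with PMA and ConA. Of 178 G protein-coupled receptor and RGS genes listed in a table, a list drawn up by symbol that leaves out NPBWR1, 90 met the control minimum and 5 (5.56%, against 1.12% of all genes) were members: DRD2, ACKR3, GPRC5C, GPR162 and GPR155. Among the other genes of that list, 12 of 129 were called lower and 8 higher with PMA, and 1 of 135 lower and 19 higher with ConA, by limma (absolute change of 1 or more, adjusted p no higher than 0.0001). Over all genes that call was made for 4.61% lower and 4.03% higher with PMA, and for 2.88% lower and 5.83% higher with ConA. The shares called higher are the background for the counts called higher in every list below. The shares called lower include the members, which the counts of other genes in each list leave out. The rule thus took genes called lower out of those counts, so they cannot show fewer falls than over all genes. With its members, the receptor and RGS list had 17 of 134 genes called lower with PMA and 6 of 140 with ConA.

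The cytokine receptor IL21R, which signals through JAK and STAT proteins in lymphocytes, went from 608 ± 19.98 to 94.2 ± 8.17 normalized counts with PMA and from 929 ± 37.2 to 384 ± 63.98 with ConA (mean ± SD, n = 3). IL17RD, a transmembrane inhibitor of FGF and MAP kinase signalling, was the reverse in size, with 785, 808 and 1018 normalized counts in PMA controls, 455, 444 and 387 under PMA, 1781, 1617 and 1701 in ConA controls and 428, 407 and 370.2 under ConA. TREM2, a lipid-binding receptor of myeloid cells, had changes of -2.32 and -1.18 from low control means of 57.9 and 50.5. GNG2, a G protein gamma subunit, had changes of -1.86 and -1.07, and RAB26, a small GTPase of vesicle traffic, of -2.37 and -1.53.

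**Figure D3:**
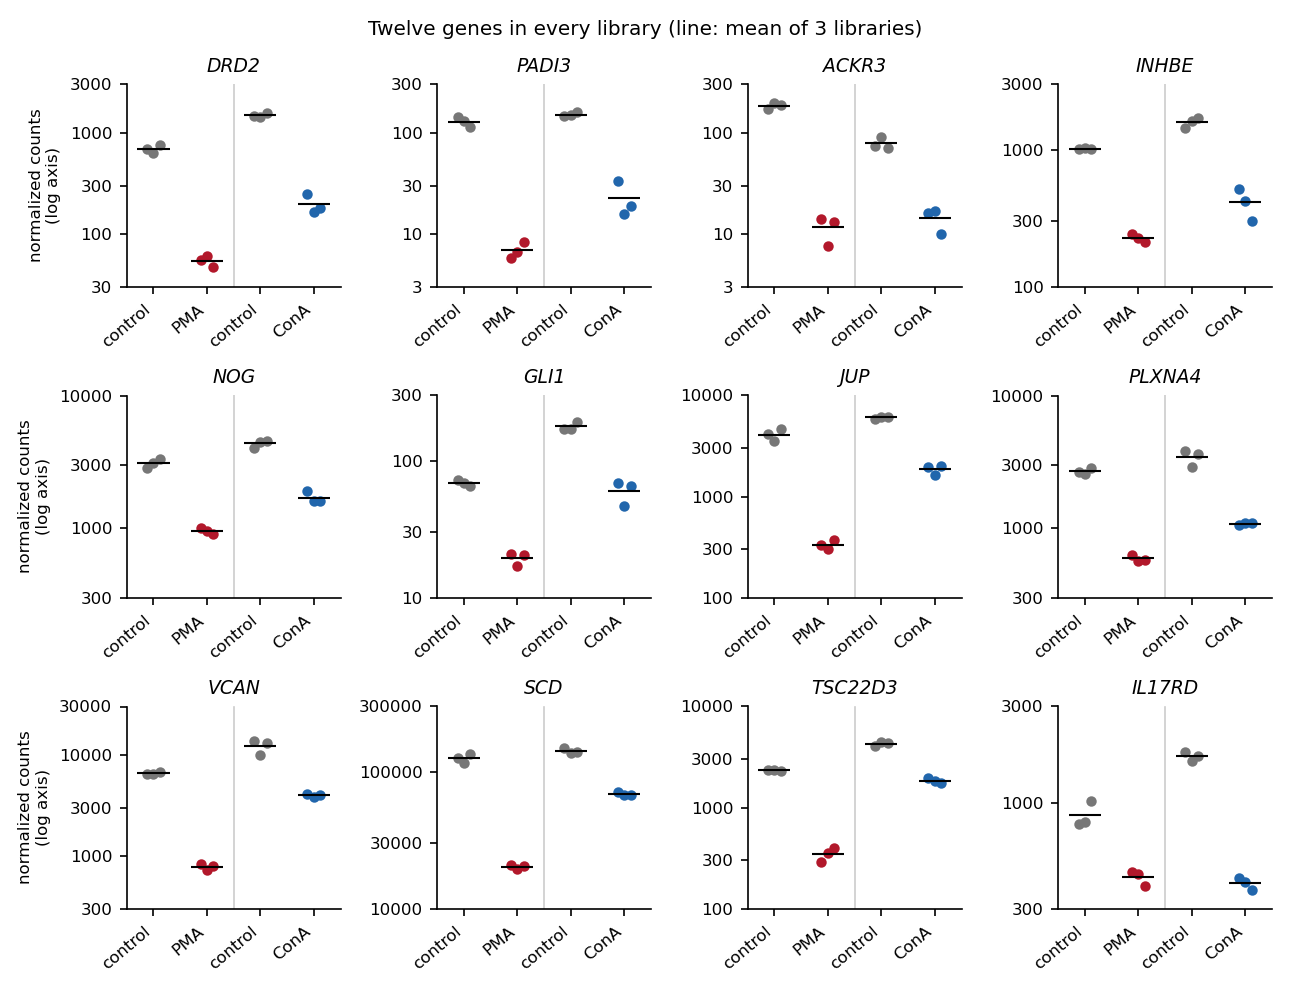
Normalized counts (log axis, scaled for each gene) of 12 members in every library, with grey points for controls, red for PMA and blue for ConA, the PMA experiment left and the ConA experiment right of the grey line, and bars for the mean of 3 libraries. Treated points lie below the controls of their own experiment in each panel, by more with PMA for JUP, VCAN, SCD and TSC22D3 and by more with ConA for IL17RD.

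Enzymes and proteins of second messengers formed a group of 11. The cyclic nucleotide genes were PDE7B, which hydrolyses cAMP, PDE5A, which hydrolyses cGMP, and GUCY1A2, a subunit of the nitric oxide-sensitive guanylate cyclase. PDE7B was at 418, 358 and 457 normalized counts in PMA controls, 47.6, 53.2 and 43.1 under PMA, 613, 574 and 579 in ConA controls and 261, 261 and 253 under ConA, a remainder of 11.7% with PMA and 43.9% with ConA. PDE5A had changes of -1.83 and -1.10 and GUCY1A2 of -2.29 and -1.51.

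Of the phospholipase C genes, whose products release diacylglycerol and inositol trisphosphate, PLCB1 had changes of -1.73 and -1.08, PLCH1 of -2.37 and -1.39 and PLCD3 of -1.18 and -1.08. PLCD3 was the most abundant of these per kilobase of longest annotated transcript, with control levels of 606 and 921 normalized counts per kilobase in the PMA and ConA experiments, against 56.8 and 59.8 for PLCB1 and 20.9 and 35.6 for PLCH1. Among calcium-binding proteins, CAPS (calcyphosine) had one of the larger changes with ConA, at 182, 158 and 156 against 994, 1215 and 1120 in controls, and 99.8, 104 and 109 against 429, 443 and 439.6 with PMA. CALB2 (calretinin) had changes of -1.32 and -1.63. RCAN2, a regulator of the phosphatase calcineurin, was at -2.55 and -1.39, TMEM38A, a cation channel of the sarcoplasmic reticulum, at -1.98 and -1.10, and CLCA2, a calcium-activated chloride channel regulator whose promoter is printed above, at -2.16 and -1.44.

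Morphogen pathways contributed 9 members on both the sending and the receiving side. In the BMP and TGF-beta family these were a ligand subunit, a ligand and an antagonist. INHBE, which encodes the subunit of activin E, was at 1009, 1031 and 1009 normalized counts in PMA controls, 244, 228 and 213 under PMA, 1453, 1615 and 1711 in ConA controls and 516, 422 and 300.1 under ConA. NOG (noggin), a secreted protein that binds BMPs and keeps them from their receptors, was at 2868, 3119 and 3302 normalized counts in PMA controls, 1011, 954 and 900.4 under PMA, 4058, 4502 and 4504 in ConA controls and 1898, 1594 and 1616 under ConA. BMP4, one of the ligands that noggin binds, had the smaller changes of -1.15 ± 0.06 with PMA and -1.10 ± 0.17 with ConA. These 3 were 6.67% of the 45 genes of the list over the control minimum, against 1.12% of all genes. Of the other genes of that list, 7 of 50 were called lower and 4 higher with PMA, and 0 of 48 lower and 2 higher with ConA by limma, where 17 were lower and 13 higher at an unadjusted p under 0.05.

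In the Hedgehog pathway the members were GLI1, the transcriptional effector and target of the pathway, and CDON, a co-receptor for Hedgehog ligands. GLI1 stood at 71.9, 68.9 and 65.0 normalized counts in PMA controls, 20.9, 17.1 and 20.4 under PMA, 171, 172 and 192 in ConA controls and 69.1, 47.03 and 65.6 under ConA, and CDON had changes of -1.49 ± 0.12 with PMA and -1.25 ± 0.13 with ConA. GLI1 and CDON made up 16.7% of 12 Hedgehog genes over the control minimum, against 1.12% of all genes. Of the others 1 of 11 was called lower with PMA and 1 of 12 lower with ConA. None was called higher by limma. At an unadjusted p under 0.05, 9 were lower and 1 higher with PMA, and 5 lower and 2 higher with ConA. Of these other genes, PTCH1 had changes of 0.17 with PMA and 0.10 with ConA, and HHIP of 0.71 and -0.67. In the Notch pathway the members were DTX1, a ubiquitin ligase that regulates the receptor, and HES2, of the HES family of transcriptional repressors. With ConA DTX1 was at 15.02, 15.7 and 14.4 against 76.1, 69.03 and 77.1 in controls. With PMA it was at 32.5, 26.6 and 15.6, a wider spread, against 62.7, 59.02 and 57.8. Its PMA change was not called lower by limma (adjusted p = 0.00108). HES2 had changes of -2.37 ± 0.12 with PMA and -1.47 ± 0.18 with ConA. Among the other Notch genes, 2 of 26 were called lower and 3 higher with PMA, and 0 of 25 lower and 4 higher with ConA by limma, where 7 were lower and 9 higher at an unadjusted p under 0.05.

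Heparan sulfate proteoglycans and the enzymes that edit them shape the range of several morphogens. The glypican GPC6 was at -1.51 ± 0.05 with PMA and -1.49 ± 0.09 with ConA, and SULF2, which removes 6-O-sulfates from heparan sulfate outside the cell, at -2.18 ± 0.08 with PMA and -1.24 ± 0.16 with ConA. The lists of Wnt, FGF and receptor tyrosine kinase genes, with 38, 21 and 27 genes over the control minimum, and of 31 MAP kinase adaptors and feedback inhibitors held no member. Over all 12487 genes 1.12% were members, and IL17RD was in none of these lists.

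Guidance and adhesion genes were the largest role group, with 19 members. JUP (plakoglobin), which links desmosomal and classical cadherins to the cytoskeleton, had one of the largest changes with PMA. It was at 4128, 3580 and 4619 normalized counts in PMA controls, 334, 303 and 369 under PMA, 5863, 6177 and 6185 in ConA controls and 1946, 1623 and 1996 under ConA, so that 8.16% of the control mean remained with PMA and 30.5% with ConA. CDH7, a classical type II cadherin, was at 84.8, 78.7 and 80.3 normalized counts in PMA controls, 3.48, 4.75 and 0 under PMA, 131, 143 and 148 in ConA controls and 61.1, 51.2 and 54.8 under ConA. With PMA its libraries held at most about 5.00 estimated reads, and the log2(value + 1) scale understates a fall to such a level.

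The immunoglobulin-family adhesion protein CNTN4 had changes of -1.49 and -1.11, the synaptic cadherin-like CLSTN2 (calsyntenin 2) of -2.05 and -2.17, and CNTNAP3, a neurexin-related protein whose gene has near-identical copies that can share reads, of -2.10 and -1.01. The teneurins TENM1 and TENM4, large transmembrane proteins that bridge synaptic partners, had changes of -1.41 and -1.68, and -1.18 and -1.12. CD99L2, a surface protein of leukocyte transmigration, had control means of 7249 and 11881 normalized counts, with changes of -1.74 and -1.05. The tetraspanins TSPAN9 and TSPAN1 had changes of -1.42 and -1.14, and -1.41 and -1.01. The polarity proteins PARD6A and MPP7 were at -1.22 and -1.12, and -1.24 and -1.02, PGM5, found at adherens junctions, was at -1.05 and -1.11, and the postsynaptic leucine-rich protein ELFN2 at -1.81 and -1.09. Of 52 cell-cell adhesion genes over the control minimum, JUP, CDH7 and CNTN4 were members (5.77%, against 1.12% of all genes). Among the others, 9 of 63 were called lower and 3 higher with PMA, and 3 of 65 lower and 8 higher with ConA.

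Axon guidance gave 5 members of 55 genes over the minimum (9.09%, against 1.12% of all genes): a receptor, 3 cues and a neurite-regulating membrane protein. PLXNA4, a semaphorin receptor, was at 2631, 2585 and 2858 normalized counts in PMA controls, 627, 570.3 and 581 under PMA, 3840, 2881 and 3651 in ConA controls and 1065, 1088 and 1087 under ConA. The cues were SEMA3G, a secreted semaphorin, with changes of -1.72 and -1.09, SEMA6D, a transmembrane semaphorin, with -2.08 and -1.17, and SLIT3, a ligand of ROBO receptors, with -1.15 and -1.33. SLITRK6, whose printed promoter holds an AP-1 match close to its start, was at 70.99, 86.8 and 69.5 normalized counts in PMA controls, 12.8, 10.5 and 8.38 under PMA, 80.2, 53.03 and 86.2 in ConA controls and 13.02, 30.3 and 22.5 under ConA, and its controls and ConA libraries were the more scattered. Of the other genes in this list, 7 of 58 were called lower and 6 higher with PMA, and 2 of 58 lower and 8 higher with ConA.

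Among matrix and matrix-binding genes, VCAN, the large chondroitin sulfate proteoglycan versican, was at 6467, 6450 and 6701 normalized counts in PMA controls, 821, 722 and 793 under PMA, 13584, 10053 and 13159 in ConA controls and 4127, 3855 and 3973 under ConA. PMA left 11.9% and ConA 32.5% of the control mean, and the ConA controls themselves were spread. HTRA1, a secreted serine protease, went from 6304 ± 164 to 1690 ± 41.0 with PMA and from 14205 ± 280.2 to 6314 ± 588 with ConA. OLFML2B, a secreted olfactomedin-domain protein, had changes of -2.52 ± 0.17 with PMA and -2.25 ± 0.19 with ConA. TGFBI, an integrin-binding matrix protein named for its response to TGF-beta, had the larger change value under ConA, a difference that was not called by limma, at 691, 637 and 567 against 2378, 2359 and 2299, while with PMA it was at 1117, 1181 and 1207 against 2491, 3480 and 2420.

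ITGB4, the integrin subunit of hemidesmosomes, had changes of -2.36 and -1.68, EDIL3, an integrin ligand, of -1.02 and -1.15, LRRC17 of -1.84 and -1.03 and the procollagen N-propeptidase ADAMTS14 of -1.28 and -1.49. In the list of 51 matrix glycoproteins and proteoglycans over the minimum, VCAN, GPC6 and TGFBI were members (5.88%, against 1.12% of all genes). Of the rest, 10 of 64 were called lower and 3 higher with PMA, and 0 of 68 lower and 5 higher with ConA by limma, where 27 were lower and 20 higher at an unadjusted p under 0.05.

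Lipid genes included the most abundant member. SCD, the desaturase that makes monounsaturated fatty acids, was at 126551, 116551 and 136051 normalized counts in PMA controls, 20797, 19521 and 20544 under PMA, 150328, 136732 and 139739 in ConA controls and 71159, 67958 and 67351 under ConA. Per kilobase its control levels, 23570 and 26532 normalized counts, were the highest of the 137 members with a transcript length, before those of the tubulin TUBA1A at 8102 and 14832. PLIN4, a lipid droplet coat protein, was at 112, 104 and 159 normalized counts in PMA controls, 16.3, 11.4 and 15.6 under PMA, 146, 162 and 147 in ConA controls and 67.1, 57.5 and 70.99 under ConA, so that its PMA libraries were all below 20 normalized counts. ABCG1, which exports cholesterol, had changes of -1.85 and -1.25, ACOX2, a peroxisomal oxidase of branched fatty acids, of -1.67 and -1.21, and APOE, the apolipoprotein, of -1.12 and -1.35.

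The 4 further phospholipid and prenyl enzymes were LPCAT2 at -1.01 and -1.06, PLPP4 at -1.67 and -1.62, the flippase ATP8A1 at -1.53 and -1.61 and PCYOX1 at -1.04 and -1.13. SCD, PLIN4, ABCG1, ACOX2 and APOE were 7.69% of 65 lipid uptake and metabolism genes over the minimum, against 1.12% of all genes. Among the others in that list, 13 of 72 were called lower and 3 higher with PMA, and 2 of 71 lower and 6 higher with ConA.

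Genes that restrain growth or sense nutrients numbered 6. TSC22D3 (GILZ), a leucine-zipper protein induced by glucocorticoids, was at 2367, 2373 and 2301 normalized counts in PMA controls, 287, 356 and 399.9 under PMA, 4087, 4445 and 4311 in ConA controls and 1968, 1820 and 1767 under ConA. SESN3, a sestrin that dampens mTORC1 and is a target of FOXO factors, had changes of -2.52 ± 0.16 with PMA and -1.44 ± 0.04 with ConA. DEPTOR, an inhibitory partner of mTOR, was at -1.83 ± 0.10 with PMA and -1.48 ± 0.05 with ConA, and CASTOR1, the arginine sensor upstream of mTORC1, at -1.07 ± 0.09 with PMA and -1.56 ± 0.13 with ConA. KLLN had changes of -2.89 and -1.16, and MXD4, a MAX-binding antagonist of MYC, of -1.33 and -1.05. MXD4 was the sole member among 38 cell cycle inhibitors and cyclins over the minimum (2.63%, against 1.12% of all genes).

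Other metabolic enzymes were AKR1B10, an aldo-keto reductase, with changes of -2.06 ± 0.36 with PMA and -2.001 ± 0.29 with ConA, and AZIN2, an antizyme inhibitor that favours polyamine synthesis, which went from 506 ± 34.7 to 80.03 ± 2.30 with PMA and from 1050 ± 127 to 386 ± 77.6 with ConA. The glycolytic aldolase ALDOC was at -1.33 and -1.37, catalase (CAT) at -1.18 and -1.11, pyruvate carboxylase (PC) at -1.06 and -1.07, ferredoxin reductase (FDXR) at -1.54 and -1.14 and nucleoredoxin (NXN) at -1.07 and -1.60. Of the glycosylation enzymes, the sialyltransferase ST6GAL2 had the largest changes, -3.09 ± 0.14 with PMA and -1.75 ± 0.11 with ConA. ST3GAL5, the GM3 ganglioside synthase, was at -1.09 and -1.05, GXYLT2 at -1.49 and -1.13 and B4GALNT3 at -1.51 and -1.21.

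Transcription factors among the members included TOX2, SNAI3 and DBP. TOX2, an HMG-box protein, had control levels per kilobase of 1412 and 1627 normalized counts, and was at 3558, 3371 and 4102 in the PMA controls against 1408, 1312 and 1409 with PMA, and 4164, 4211 and 4342 against 1735, 1435 and 1678 with ConA. The circadian bZIP factor DBP had changes of -1.63 ± 0.05 with PMA and -1.03 ± 0.16 with ConA and SNAI3, of the Snail family, of -2.42 ± 0.21 with PMA and -1.37 ± 0.13 with ConA. SNAI3 overlaps SNAI3-AS1, which had changes of -1.87 and -1.22, and since the strand setting of the counting is not given in the sources used here, reads of the pair cannot be told apart. SNAI3 was the sole member among 129 homeobox and developmental transcription factor genes over the minimum (0.775%), where 1.12% of all 12487 genes were members. A list of 460 genes over the minimum with ZNF, ZSCAN, ZKSCAN, ZFP and ZBTB symbols held no member, and other zinc finger genes such as GLI1 and SNAI3 were not in it.

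The arginine deiminases PADI1 and PADI3 and a substrate of such enzymes were in the set. PADI3, which converts arginine to citrulline in hair follicle and epidermal proteins, was at 143, 129.7 and 115 normalized counts in PMA controls, 5.80, 6.65 and 8.38 under PMA, 145, 149 and 159 in ConA controls and 33.04, 15.7 and 18.9 under ConA. All of its PMA libraries were under 9 normalized counts. PADI1, a neighbour of PADI3 on chromosome 1, was at 72.8, 78.7 and 80.3 normalized counts in PMA controls, 12.8, 14.3 and 17.96 under PMA, 112, 173 and 130.2 in ConA controls and 39.1, 28.2 and 27.9 under ConA. FLG (filaggrin), the epidermal filament-aggregating protein that these enzymes modify, had changes of -1.27 ± 0.06 with PMA and -1.20 ± 0.17 with ConA, and BFSP1, the lens beaded-filament protein filensin, of -2.41 ± 0.10 with PMA and -1.78 ± 0.15 with ConA. Per kilobase the control levels were 229.5 and 202 normalized counts for BFSP1, 40.5 and 47.4 for PADI3 and 20.1 and 35.95 for PADI1.

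Cytoskeletal genes and GTPase regulators numbered 7. ERMN (ermin), an actin-binding protein known from oligodendrocytes, was at 95.9, 85.9 and 89.4 normalized counts in PMA controls, 2.32, 4.75 and 3.59 under PMA, 244, 258 and 269.5 in ConA controls and 61.1, 35.5 and 45.8 under ConA. With PMA it had at most about 5.00 estimated reads a library. TUBA1A, an alpha-tubulin and the second most abundant member per kilobase, was at 15293, 15758 and 15494 normalized counts in PMA controls, 6174, 6264 and 6157 under PMA, 28211, 29058 and 27941 in ConA controls and 14062, 13228 and 12953 under ConA, with libraries of a group closer together than for most members. Its close relatives in the tubulin family can share reads. PLEKHG4, whose promoter is printed above, had changes of -2.72 ± 0.17 with PMA and -1.76 ± 0.08 with ConA, and ARHGAP28 of -1.96 ± 0.10 with PMA and -1.24 ± 0.25 with ConA. The list of 55 actin and contractile genes over the minimum held no member, against the 1.12% of all genes. DCLK1, SEPTIN5 and AFAP1L2 had changes of -1.66 and -1.06, of -1.18 and -1.13 and of -1.22 and -1.52.

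Genes of vesicle traffic and secretion were SYTL1, a Rab27 effector, with changes of -1.92 ± 0.07 with PMA and -1.91 ± 0.28 with ConA, SCG2, a secretogranin of dense-core granules, with -2.48 ± 0.10 with PMA and -1.33 ± 0.11 with ConA, the proprotein convertase PCSK4 with -1.69 and -1.49, TRAPPC6A with -1.57 and -1.11, the proton pump subunit ATP6V1G2 with -1.79 and -1.30, and REEP6 with -1.01 and -1.35. The transporters were SLC29A4, a plasma membrane monoamine transporter, with -1.34 ± 0.24 with PMA and -1.14 ± 0.16 with ConA, and SPNS3 with -1.95 ± 0.11 with PMA and -1.22 ± 0.37 with ConA. SLC29A4 was the sole member among 212 solute carriers over the minimum (0.472%), and the lists of 58 channel genes, 37 synaptic and neuronal genes and 48 protein phosphatases held none, where 1.12% of all genes were members.

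Transcripts without a known protein numbered 17 in this grouping. LINC00639 was at 65.5, 52.8 and 59.6 normalized counts in PMA controls, 5.80, 0.951 and 2.40 under PMA, 115.7, 108 and 118 in ConA controls and 35.1, 28.2 and 28.8 under ConA, with at most about 5.00 estimated reads in a PMA library. LINC00460, whose promoter above carries the AP-1 letters at 2 places, had changes of -1.34 ± 0.32 with PMA and -1.88 ± 0.38 with ConA. MIR210HG, the host transcript of miR-210 and known for its response to hypoxia, was at 143, 99.3 and 78.2 with ConA against 414, 493 and 436, and at 334, 282 and 347 against 625, 639 and 684 with PMA. LINC00673 had changes of -2.13 and -1.07, DLEU1 of -1.11 and -1.22 and LINC01561 of -1.97 and -1.39.

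The antisense members PRR7-AS1, TOB1-AS1, PIK3CD-AS2, NAPA-AS1, SERTAD4-AS1 and SNAI3-AS1 had PMA changes from -1.87 to -1.18 and ConA changes from -1.24 to -1.07, and their reads cannot be told apart from those of a gene on the other strand where the 2 overlap. The pseudogene transcripts FER1L4 and GUSBP4 had changes of -3.10 and -1.31, and -1.76 and -1.09. Where a related gene shares reads with such a transcript, its change is uncertain, and this was not tested. The 12 members in the list of long noncoding and antisense genes were 2.51% of its 479 genes over the minimum, against 1.12% of all genes.

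The 16 members left without a role above had changes from -2.78 to -1.04 with PMA and from -1.62 to -1.003 with ConA. They include IGFL3, whose printed promoter carries an AP-1 match, at -2.58 and -1.58, the zona pellucida gene ZP1 at -1.12 and -1.51, and the endolysosomal membrane protein gene KIAA1324 at -2.78 and -1.32. Closest to the threshold inside the rule were REEP6 with PMA (-1.01), and LRRC27 and TCTEX1D2 with ConA, at -1.01 and -1.003. Just outside it were PLAT, at -1.62 with PMA and -0.9996 with ConA, TLCD2, at -0.9964 and -1.07, and SYTL5, at -1.65 and -0.9963.

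Whether the size of the fall differed between the treatments is a question the rule limited but did not settle, since it bounds each change from above. With both changes at -1 or lower, a difference of 1 needed a change of -2 or lower with 1 treatment. That was so for 48 members with PMA and 13 with ConA, so the number that could be called in each direction was bounded beforehand. The difference is nevertheless made of the same values, so it is given as a measurement on chosen genes and not as independent support. It was tested with limma over all 12 libraries as the PMA change less the ConA change, each within its own table, with Benjamini-Hochberg adjustment over 15030 genes and a call where the absolute difference reached 1 with an adjusted p no higher than 0.0001. Over all genes 6.89% were called with the change lower under PMA and 3.67% with the change lower under ConA. Those genes were not bound by the rule, so their shares and those of the members are not alike. Of the 140 members, 17 (12.1%) were called with the larger fall under PMA, and 1 (0.714%) with the larger fall under ConA. The count of 17 became 9 without limma's variance trend and 7 after quantile normalization within each table.

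Among the called members, the differences with the smallest adjusted p were in SCD, at -1.59 ± 0.08 (limma adjusted p = 3.16e-11), JUP, at -1.89 ± 0.13 (limma adjusted p = 9.98e-10), and PDE7B, at -1.89 ± 0.15 (limma adjusted p = 5.71e-09). They were followed by TSC22D3, at -1.56 ± 0.12, VCAN, at -1.46 ± 0.12, and IL21R, at -1.40 ± 0.14, with limma adjusted p-values of 6.51e-09, 9.65e-09 and 2.13e-07. These 6 genes stayed called in all 20 other settings of the fit. PMA left from 8.16% (JUP) to 16.1% (SCD) of the control mean in these genes, and ConA from 30.5% (JUP) to 48.4% (SCD).

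The other 11 with the larger fall under PMA were AZIN2, CDH7, CNTNAP3, ERMN, KIAA1324, KLLN, LINC00673, PLIN4, SCG2, SESN3 and ST6GAL2, and each lost the call in at least 1 other setting. CDH7 had the largest difference, -3.47 ± 0.60 (limma adjusted p = 7.96e-05), on very few reads, and lost the call in 13 of 20 settings, among them the omission of any 1 ConA or control library, where the adjusted p ran up to 0.000331, and a pseudocount of 0.1, where it was 0.00432. ERMN, at -1.92 ± 0.31 (limma adjusted p = 4.79e-05), lost it in 11. IL17RD was the single gene with the larger fall under ConA, at 1.07 ± 0.13 (limma adjusted p = 2.05e-06), and it lost the call without the variance trend (adjusted p = 0.000162) and without PMA control 1, where the difference was short of the size asked for.

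**Figure D4:**
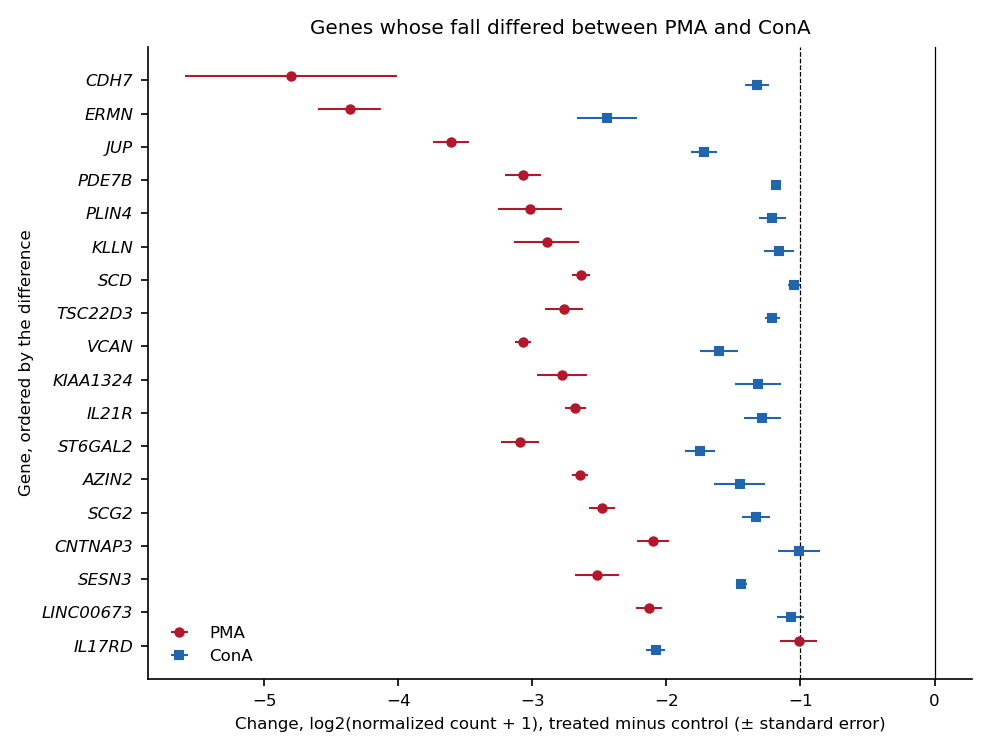
The 18 members called for a difference between treatments (vertical axis, ordered by the difference), with the change with PMA (red circles) and with ConA (blue squares) in log2(normalized count + 1), error bars of 1 standard error from 3 libraries a group, and a dashed line at the rule's limit of -1. The ConA points of the 17 genes above the last lie nearer to the limit than their PMA points, and IL17RD at the bottom is the other way round.

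For the remaining 122 members no difference was called, which does not show that the falls were equal. In 79 of them the 95% confidence interval of the difference lay within 1 of 0 on both sides. The intervals take no account of the rule, which kept only genes with both changes at -1 or lower. The narrowest interval among those with an adjusted p over 0.05 was that of CAT, -0.24 to 0.08, followed by PCYOX1 with -0.08 to 0.25 and EDIL3 with -0.03 to 0.29. INHBE had an interval of -0.56 to 0.22, OLFML2B of -0.75 to 0.21 and AKR1B10 of -0.85 to 0.73. Of the 122, 10 passed the adjusted p but not the size, among them HTRA1 at -0.73 ± 0.08, CD99L2 at -0.69 ± 0.07, PDE5A at -0.74 ± 0.12 and BTBD11 at 0.49 ± 0.09, and 10 passed the size but not the adjusted p, among them PADI3 at -1.28 ± 0.33, ACKR3 at -1.51 ± 0.34, LINC00639 at -2.21 ± 0.46 and MIR210HG at 1.08 ± 0.22. LINC00639 passed both without PMA replicate 1, with a limma adjusted p of 5.15e-06 in place of 0.0005.

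The starting levels of the members also differed between the experiments, which were normalized apart, so that experiment and normalization cannot be told apart in this comparison. The ratio of the ConA control mean to the PMA control mean had a median of 1.28 over the members and 1.15 over the 12487 genes. It was above 1.5 for 47 members (33.6%, against 10.4%) and below 0.67 for 6 (4.29%, against 2.07%). These control values were also used by the rule. The members had lower control medians, 211 and 313 normalized counts against 1115 and 1302. The part of either in these shares was not tested. OLFML2B had the highest ratio, 5.05, with 624, 581 and 621 normalized counts against 137, 124.3 and 100.2, followed by APOE at 3.23 and ERMN at 2.85. At the other end CNTN4 stood at 55.2, 48.6 and 48.1 in the ConA controls against 186, 198 and 207 in the PMA controls, and ABCG1 at 163, 146 and 131 against 493, 487 and 462. LRRC17 with ConA, at 1110, 1009 and 954, was above its PMA controls, at 779, 787 and 789.

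A few members lie next to each other in the genome. Of the 138 matched to RefSeq genes, 5 pairs were within 100 kb: PADI1 and PADI3 on chromosome 1, PLPP4 and LINC01561 on chromosome 10, INHBE and GLI1 on chromosome 12, SNAI3 and SNAI3-AS1 on chromosome 16, and PCSK4 and REEP6 on chromosome 19. SNAI3 and SNAI3-AS1 overlap and the other pairs do not.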

How the data were processed

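RNA of HT1080 cells was measured by sequencing of polyadenylated RNA in 12 libraries, 3 in each of 4 groups, and grouped by the sample labels. The authors deposited signal values in 1 table per experiment, which are normalized counts by gene symbol: read counts, partly estimated where genes share reads, which the authors had divided by 1 factor per library. The submitters' processing notes name Partek, Bowtie2, STAR and DESeq2 and the builds hg19 and mm10, with no versions or roles given in the sources used here. Only 80.2% to 82.6% of low values (5 to 60) became whole within 0.02 under the best factor, so read counts were not recovered and tests for counts were not run. The spread between 3 libraries limits the precision, and an exact permutation test of 3 against 3 cannot go below p = 0.1.

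The rule was applied to log2(value + 1). Changes over all genes were fitted with limma 3.58.1 in R 4.3.3 (variance trend, genes with a mean of at least 10, 15153 for PMA and 15139 for ConA, Benjamini-Hochberg adjustment, call where the absolute change reached 1 with an adjusted p no higher than 0.0001), and the difference between treatments over all 12 libraries with 4 group means. The fit was tested on simulated data. Levels per kilobase use the longest transcript in GENCODE, and promoters, gene types and neighbours come from RefSeq (GRCh38.p14). Since the builds differ, no gene coordinates are given beyond the promoters. Alternatives covered the pseudocount, filter, scaling, variance trend, thresholds, the replicate number as a block and the omission of each library. Python 3.11.15 with pandas 2.3.3, numpy 2.4.6 and matplotlib 3.10.9 was used for the rest.

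The members, the 22 gene lists, the 9 marker lists and the tests were chosen with earlier results of these data known, and the grouping by role after the members' values were seen. Named by rule were the 15 members with the largest smaller fall, the 6 with the highest control mean, up to 5 in each direction with the largest difference between treatments, up to 3 of each list, and the 3 on each side of the limit. The other members were described by role, and the results for 1 member and 1 gene list are not reported here.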

Additional observations from a re-analysis of the deposited data

How the results depend on the processing

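The set held 240 genes with a control minimum of 10 normalized counts, 70 with a minimum of 200 and 10 at a limit of -2 in place of -1. It held 144 after quantile normalization, 121 of them among the 140, and 132 to 150 when 1 library was left out. The median change of the members with PMA was -1.55 with a pseudocount of 10 and -1.57 after quantile normalization, and the median with ConA stayed within the spread between replicates in every alternative run. Without the variance trend 867 genes were called with PMA, in place of 1310, and 662 with ConA, in place of 1318. The 17 members with the larger fall under PMA became 9 without the trend, 7 after quantile normalization and 26 with the limit on the adjusted p at 0.05, and the single one under ConA became 0 without the trend and 2 at that limit. Leaving out 1 library gave 13 to 19 members under PMA and 0 to 2 under ConA (0 without PMA control 1, 2 without ConA replicate 1), the cause of which was not tested. Numbers are shared between PMA and its controls only. Same-numbered libraries correlated at -0.064, 0.096 and 0.096 in their deviations from the group means, and the other pairs at -0.176 to 0.106. The labels do not say whether same-numbered libraries were prepared together, and these values cannot settle it. With the replicate block 1264 genes were called with PMA, 17 members kept the larger fall under PMA and 1 under ConA, and no paired analysis was possible for ConA alone because its controls carry other numbers. No named value changed direction.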
